A study of Mus musculus with 12 samples.

Results

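The small GTPases Rac, Cdc42 and RhoA switch actin assembly and contraction on when bound to GTP and off when bound to GDP. RhoGEFs load them with GTP, and RhoGAPs speed up the hydrolysis that turns them off. In neutrophils this balance steers the front and the rear of the crawling cell, phagocytosis and the oxidative burst. The Arhgef genes and the Dock genes encode the activating side, through Dbl-type and DOCK-type exchange domains respectively, and the Arhgap genes encode the inactivating side. The genes described here were selected on their names (Arhgap, Arhgef or Dock followed by a number) and on a mean count of at least 10 over all samples. The name matched 71 of the 29737 genes in the table, and 56 of them reached the minimum, with 29 Arhgap, 16 Arhgef and 11 Dock genes. Of the Arhgap genes, 4 carry symbols of opposite-strand transcripts (Arhgap15os, Arhgap27os1, Arhgap27os2 and Arhgap27os3) and encode no RhoGAP. The lowest genes kept were Dock3 and Arhgef28, with mean counts of 16.6 and 16.9, and just under the minimum lay Arhgap29, with 8. All 56 passed the filter on low counts that preceded the tests. Arhgap22 was pointed to because of its level with Tβ-MCA. Its values in comparisons with Tβ-MCA are therefore a description without a test, and it was left out of the counts in those comparisons.

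The RNA came from neutrophils of the bone marrow of wild-type mice (female C57BL/6 in the study's methods), which the labels describe as Ly6G+ and sorted with EasySep magnetic beads. The cells were cultured for 24 h in RPMI medium with 10% FBS, to which PBS, taurocholic acid (TCA, 200 μM), glycocholic acid (GCA, 200 μM) or the taurine conjugate of β-muricholic acid (Tβ-MCA) was added. For Tβ-MCA the labels give 10 μM and the study's methods 200 μM. Each group had 3 samples, which the labels number 3, 5 and 6 for PBS and 3, 4 and 5 for the bile acids. Nothing states that they came from separate mice, and the p-values measure the spread between these samples only. TCA and GCA share the cholic acid core and differ in the amino acid joined to it, taurine or glycine, while Tβ-MCA carries taurine on β-muricholic acid.

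Total counts lay between 32757389 and 41375925 per sample, and the 56 genes took between 0.762% and 0.830% of them. Libraries within a group did not all lie together. Along the change from the PBS mean (0) to the mean of Tβ-MCA replicates 3 and 4 (1), over 3066 genes that passed the test without Tβ-MCA replicate 5, Tβ-MCA replicate 5 lay at 0.297. GCA replicate 4 lay further along, at 0.365, while GCA replicates 3 and 5 lay at 0.114 and 0.0725, the TCA samples between 0.0499 and 0.115 and the PBS samples between -0.0161 and 0.0223. Results that rest on these libraries are given with and without them. The neutrophil markers were present in all samples, with a summed level of 14 genes of 51578 to 63631 CPM (counts scaled to the library size) with PBS, 49607 to 60647 with TCA, 41758 to 47315 with Tβ-MCA and 47043 to 58378 with GCA. Lower CPM of these transcripts can reflect a smaller share of neutrophil RNA in the sample or less of these transcripts per neutrophil. These cannot be told apart in bulk samples.

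Promoter sequences of 3 genes with higher levels with Tβ-MCA are shown as a description. Of these, Arhgap22 was chosen for that level, so its rise beside Arhgap18 and Arhgef18 is not a result. RefSeq held 1 or more promoters for 42 of the 56 genes (GRCm38.p6, 250 bases before to 50 after the start). RefSeq gave no entry for Arhgap24 and Arhgap31. Capitals mark letters that match a searched motif on either strand. The motifs were the cyclic AMP response element TGACGTCA and its part TGACG, the AP-1 site TGANTCA, the E-box CACGTG and the GC box GGGCGG, where each match of TGACGTCA also holds TGACG. Arhgap22 lies at chr14:33214026-33369934 on the plus strand, and the promoter listed for it at chr14:33216573-33216872, whose start lies 2797 bases inside the deposited gene model, held none of these letters.
Arhgap22: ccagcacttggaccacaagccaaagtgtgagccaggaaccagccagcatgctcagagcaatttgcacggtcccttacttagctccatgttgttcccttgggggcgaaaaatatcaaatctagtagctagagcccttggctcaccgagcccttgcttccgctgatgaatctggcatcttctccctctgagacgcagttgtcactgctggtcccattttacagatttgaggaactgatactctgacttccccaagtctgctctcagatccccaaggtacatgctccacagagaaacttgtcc
Arhgap18 lies at chr10:26753421-26918648 on the plus strand, and the promoter listed for it at chr10:26772262-26772561, whose start lies 19091 bases inside the deposited gene model, held 1 AP-1 match.
Arhgap18: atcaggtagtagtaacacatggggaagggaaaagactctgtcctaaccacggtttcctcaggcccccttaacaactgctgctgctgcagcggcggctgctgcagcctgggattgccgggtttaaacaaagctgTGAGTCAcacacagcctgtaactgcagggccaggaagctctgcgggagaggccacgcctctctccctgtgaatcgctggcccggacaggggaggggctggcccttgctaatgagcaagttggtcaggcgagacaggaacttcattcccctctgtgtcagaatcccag
Arhgef18 lies at chr8:3393006-3456601 on the plus strand, and of its 2 listed starts the one nearest to the start of the deposited gene model, with the window chr8:3392758-3393057, held 1 E-box match and 2 GC box matches.
Arhgef18: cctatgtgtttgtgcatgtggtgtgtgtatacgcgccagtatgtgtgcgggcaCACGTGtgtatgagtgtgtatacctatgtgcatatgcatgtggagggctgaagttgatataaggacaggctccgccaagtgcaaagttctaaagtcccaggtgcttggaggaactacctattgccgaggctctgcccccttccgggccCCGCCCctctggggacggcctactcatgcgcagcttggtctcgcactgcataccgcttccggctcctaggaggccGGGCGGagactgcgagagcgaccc
The 3 promoters shared no motif among those searched. Among 66 promoters of the 56 genes, 32 held a GC box (48.5%, against 35.7% of all 32851 promoters), and their median GC content was 58.5% against 52.7%. E-box letters stood in 6 (9.09%, against 7.15% of all), AP-1 letters in 4 (6.06%, against 7.81%), TGACG in 12 (18.2%, against 20.8%) and TGACGTCA in 1 (1.52%, against 1.79%). These matches describe letters and not binding.

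Levels were compared between genes as RPKM, which divides by gene length and depth. With PBS, 39 of the 56 genes had a mean of at least 1 RPKM and 5 lay under 0.1 RPKM, around a median of 3.32. Arhgap30, a RhoGAP of blood cells, led with 296 ± 17.0 RPKM (SD, n = 3), which was 28.0% of the summed RPKM of the 56 genes. Arhgef1, a RhoA exchange factor coupled to G protein-coupled receptors, followed with 123 ± 6.71 RPKM, and Arhgap9 with 92.0 ± 0.142 RPKM. Arhgap25 (60.2 RPKM), a Rac GAP known from phagocytosis, and Arhgap11a (59.7 RPKM) were next and overlapped each other over the PBS samples. The first 5 genes held 59.6% of the summed RPKM. Arhgef18 (46.6 RPKM), Dock8 (46.4 RPKM), Dock2 (44.3 RPKM) and Arhgap4 (42.6 RPKM) formed a run in which each overlapped its neighbour, and Dock5 (29.6 RPKM) lay below them. Dock2 is the main Rac activator of migrating leukocytes, Dock8 acts on Cdc42 in immune cells, and Dock5 is a Rac activator expressed in neutrophils. At the low end, Arhgap22 ranked 49 with 0.192 ± 0.0345 RPKM, and Dock3 was lowest with 0.0326 RPKM.

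**Figure D1:**
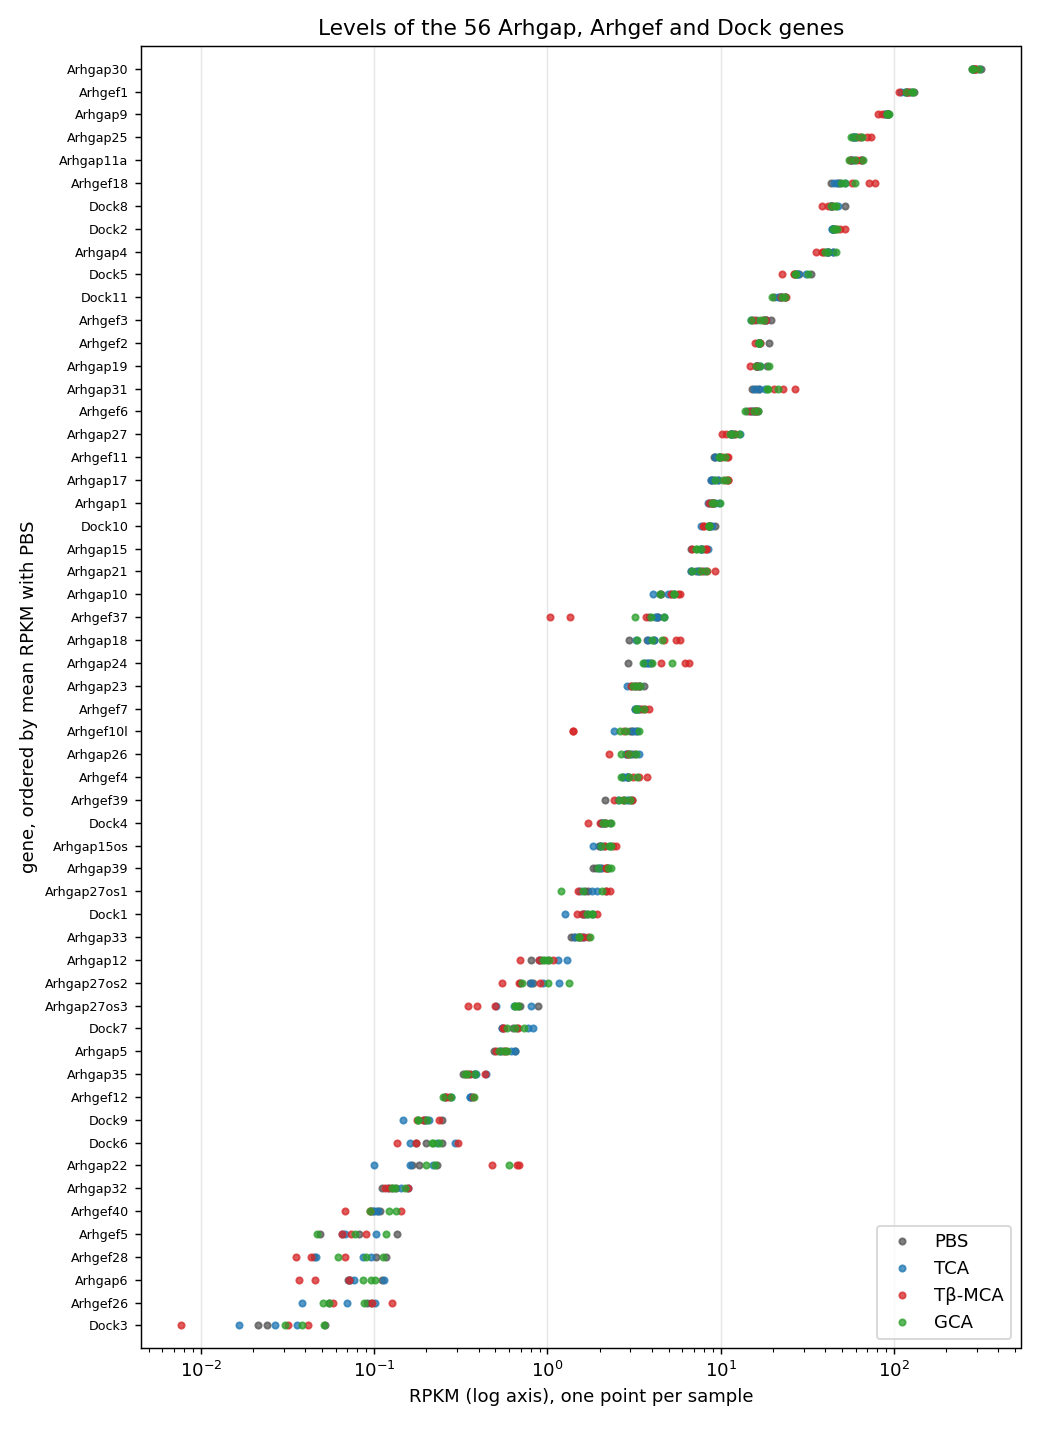
Deposited RPKM (log axis) of the 56 genes in each of the 12 samples, 1 point per sample coloured by treatment, with genes ordered by their mean with PBS. Arhgap30 stands alone at the top at 296 RPKM with PBS, and for most genes the 4 treatments lie on top of each other.

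The summed levels of the families moved little. The 25 Arhgap genes without opposite-strand transcripts summed to 652 ± 21.3 RPKM with PBS, 648 ± 21.5 with TCA, 660 ± 3.18 with Tβ-MCA and 656 ± 17.7 with GCA (SD, n = 3). The Arhgef genes summed to 246 ± 4.62, 240 ± 8.98, 258 ± 10.5 and 252 ± 3.08 RPKM in the same order. The Dock genes summed to 155 ± 9.44, 153 ± 4.44, 151 ± 5.54 and 155 ± 5.64 RPKM. The lowest Tβ-MCA sample of the Arhgef sum, at 251.7 RPKM, lay just above the highest PBS sample, at 251.1 RPKM, and the Arhgap and Dock sums overlapped between these groups. Within the Arhgef sum, Arhgef18 went from 46.6 with PBS to 68.7 RPKM with Tβ-MCA, and Arhgef1 from 123 to 115. RPKM divides by the total count, which puts the median gene at 0.0521 (log2, Tβ-MCA against PBS), against 0.00411 under the scaling of the tests. Whether the Arhgef sums stay apart under that scaling was not tested.

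Tβ-MCA against PBS asks which of these genes the bile acid changed. A small set moved: Arhgap31, Arhgap24, Arhgap18 and Arhgef18 rose by less than 2-fold and Arhgap27os3 fell, by the quasi-likelihood test of edgeR, adjusted over 16761 genes after Benjamini and Hochberg. With Arhgap22 set apart, 4 of 55 genes were higher (7.27%, against 4.44% of all genes tested) and 1 was lower (1.82%, against 3.18%). The abundant genes Arhgap30, Arhgef1 and Dock2 did not pass the test, and 43 of the 55 fold changes lay within 0.25 of 0 on the log2 scale. Without Tβ-MCA replicate 5, 4 were higher (7.27%, against 8.52% of all genes) and 6 were lower (10.9%, against 9.44%). The shares among these genes were thus near those of all genes in both fits.

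Arhgap22, a GAP that acts on Rac, had the highest fold change of the 56. Its CPM was 0.918, 0.647 and 0.701 in PBS replicates 3, 5 and 6. It reached 2.60, 2.51 and 1.82 CPM in the Tβ-MCA samples (replicates 3, 4 and 5), from 87, 93 and 68 counts. All Tβ-MCA samples lay above all PBS samples, and the log2 difference was 1.61 ± 0.38 (SE), given as a description. With TCA it was 0.868, 0.387 and 0.623 CPM, among or below the PBS samples. With GCA it was 0.789, 2.29 and 0.882 CPM in replicates 3, 4 and 5, so that GCA replicate 4 lay within the range of Tβ-MCA and the other GCA samples within the range of PBS. On the opposite strand, Gm15512 shares 36.9% of the exon bases of Arhgap22. Gm15512 stood at 0.459, 0.235 and 0.324 CPM with PBS, at 1.85, 1.97 and 1.39 CPM with Tβ-MCA and at 0.282, 1.43 and 0.700 CPM with GCA. It was high in the same samples as Arhgap22, GCA replicate 4 included. The sources used here do not state whether the counting used strand, so which of these transcripts gave the shared reads was not tested.

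Arhgap31 (chr16:38598340-38713274), also known as CdGAP, is a GAP for Cdc42 and Rac. It stood at 174, 186 and 179 CPM with PBS and at 294, 248 and 223 CPM with Tβ-MCA (replicates 3, 4 and 5). The groups did not overlap, and Tβ-MCA replicate 5 was the lowest of its group. The log2 difference was 0.50 ± 0.092 (SE, edgeR adjusted p = 0.0206).

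Arhgef18 (p114-RhoGEF), an exchange factor for RhoA, stood at 373, 404 and 411 CPM with PBS and at 639, 582 and 471 CPM with Tβ-MCA. All Tβ-MCA samples were above all PBS samples. The log2 difference was 0.51 ± 0.10 (edgeR adjusted p = 0.0208).

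Arhgap24 (chr5:102481391-102897937), also known as FilGAP, binds filamin and turns off Rac. It stood at 26.2, 32.9 and 34.8 CPM with PBS and at 53.2, 56.2 and 39.3 CPM with Tβ-MCA. Again the groups did not overlap and Tβ-MCA replicate 5 was closest to PBS. The log2 difference was 0.66 ± 0.15 (edgeR adjusted p = 0.0271).

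Arhgap18, a GAP for RhoA, stood at 11.8, 16.2 and 14.6 CPM with PBS and at 22.3, 20.9 and 18.0 CPM with Tβ-MCA, without overlap. The log2 difference was 0.52 ± 0.13 (edgeR adjusted p = 0.0324). The transcript Arhgap27os3 (chr11:103344753-103350124, plus strand), which lies within the bounds of Arhgap27 on the other strand and shares no exon bases with an annotated gene, went the other way. It stood at 1.95, 2.41 and 1.86 CPM with PBS and at 1.05, 0.918 and 1.34 CPM with Tβ-MCA, from 34 to 50 counts. The log2 difference was -0.91 ± 0.23 (edgeR adjusted p = 0.0308), while its neighbour Arhgap27 changed by -0.12 on the log2 scale (adjusted p = 0.341).

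These 5 calls kept their direction whichever sample was left out, but most did not stay past the threshold. Leaving out PBS replicate 3 or 5 or Tβ-MCA replicate 3 or 4 ended all 5 calls, and leaving out PBS replicate 6 ended all but that of Arhgap31, with edgeR adjusted p of at most 0.149. Without Tβ-MCA replicate 5 all 5 passed, with log2 differences of 0.59 for Arhgap31, 0.62 for Arhgef18, 0.81 for Arhgap24, 0.60 for Arhgap18 and -1.08 for Arhgap27os3.

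**Figure D2:**
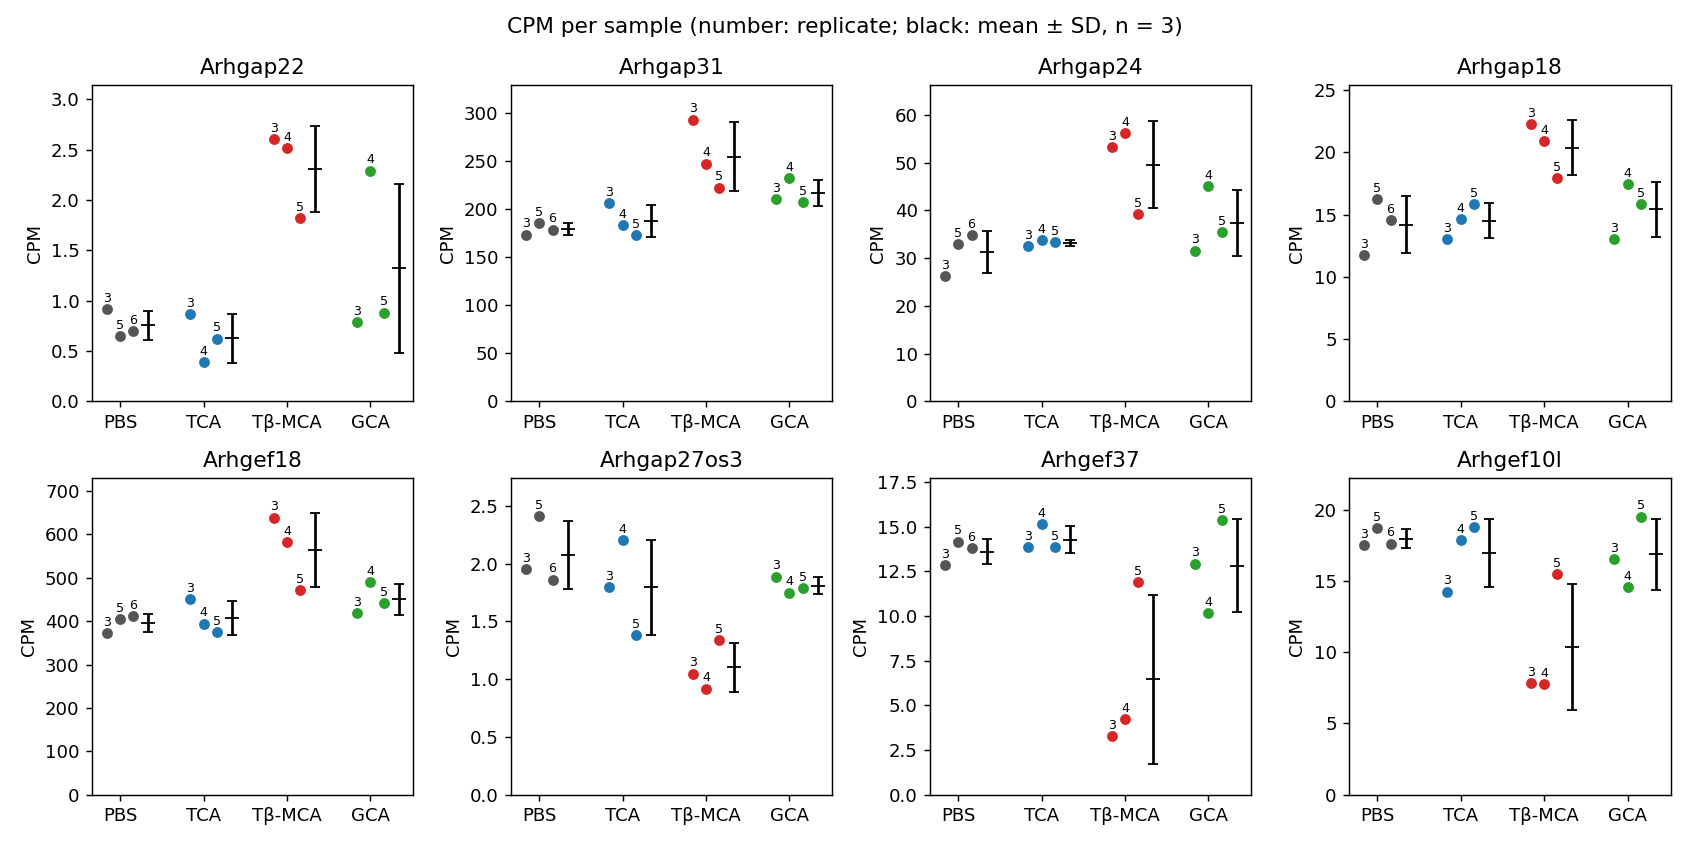
CPM of 8 genes in each sample (numbers are the replicate numbers of the labels), with the mean ± SD of 3 samples in black and axes from 0. Arhgap22, Arhgap31, Arhgap24, Arhgap18 and Arhgef18 lie higher in all Tβ-MCA samples than in all PBS samples, GCA replicate 4 is the highest GCA sample for each of these 5, and Tβ-MCA replicate 5 lies near PBS for Arhgef37 and Arhgef10l.

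Arhgef37 and Arhgef10l were far lower in Tβ-MCA replicates 3 and 4 than in replicate 5. Arhgef37, a gene with the exchange-factor domain and no well described target, stood at 12.8, 14.2 and 13.8 CPM with PBS and at 3.26, 4.24 and 11.9 CPM with Tβ-MCA (replicates 3, 4 and 5). Its log2 difference was -1.07 ± 0.40 (edgeR adjusted p = 0.134), and without Tβ-MCA replicate 5 it was -1.85 (adjusted p = 2.93e-05). It was the 1 gene of the 55 at an unadjusted p under 0.05 and a change of at least 2-fold, the thresholds of the study's methods, where 1.09% of all genes were higher and 1.86% lower. Arhgef10l, a guanine nucleotide exchange factor that was chosen for description after its values were seen, stood at 17.5, 18.7 and 17.6 CPM with PBS and at 7.84, 7.78 and 15.5 CPM with Tβ-MCA. Its log2 difference was -0.79 ± 0.23 (edgeR adjusted p = 0.0613, and 0.00394 with DESeq2), and without Tβ-MCA replicate 5 it was -1.20 (adjusted p = 7.48e-05). In both genes replicate 5 lay just under the PBS samples while replicates 3 and 4 were far below them.

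Markers of other cells moved in the same libraries. All 12 monocyte and macrophage markers had a lower mean with Tβ-MCA than with PBS, and for 5 of them the samples did not overlap. Their summed level with Tβ-MCA was 412, 535 and 811 CPM (replicates 3, 4 and 5), against 775 to 961 with PBS, 664 to 979 with TCA and 746 to 942 with GCA. Ccr2, the chemokine receptor of inflammatory monocytes, was at 2.03, 2.70 and 29.2 CPM with Tβ-MCA and at 37.3 to 51.2 CPM with PBS. All 9 eosinophil markers were lower in mean too, with sums of 92.4, 64.6 and 147 CPM with Tβ-MCA, 164 to 289 with PBS, 159 to 254 with TCA and 133 to 282 with GCA. Of the 14 neutrophil markers 13 were lower in mean, 11 of them without overlap. Of all genes tested, 12.8% lay below PBS without overlap under this scaling and 9.30% with total library size. The markers were not counted under that other scaling. Basophil and mast cell markers (8 genes) summed to 49.8 to 79.0 CPM with Tβ-MCA and 54.4 to 91.2 with PBS, B cell markers (8 genes) to 8.48 to 10.9 and 11.3 to 18.5, T and NK cell markers (8 genes) to 1.74 to 2.36 and 2.81 to 3.97, and erythroid markers (8 genes) to 1.91 to 2.52 and 1.61 to 2.78 CPM. No marker was below 3 counts in all samples except Klrb1c. The part of any of these cells in the values of Arhgef37, Arhgef10l or the other genes was not tested.

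**Figure D3:**
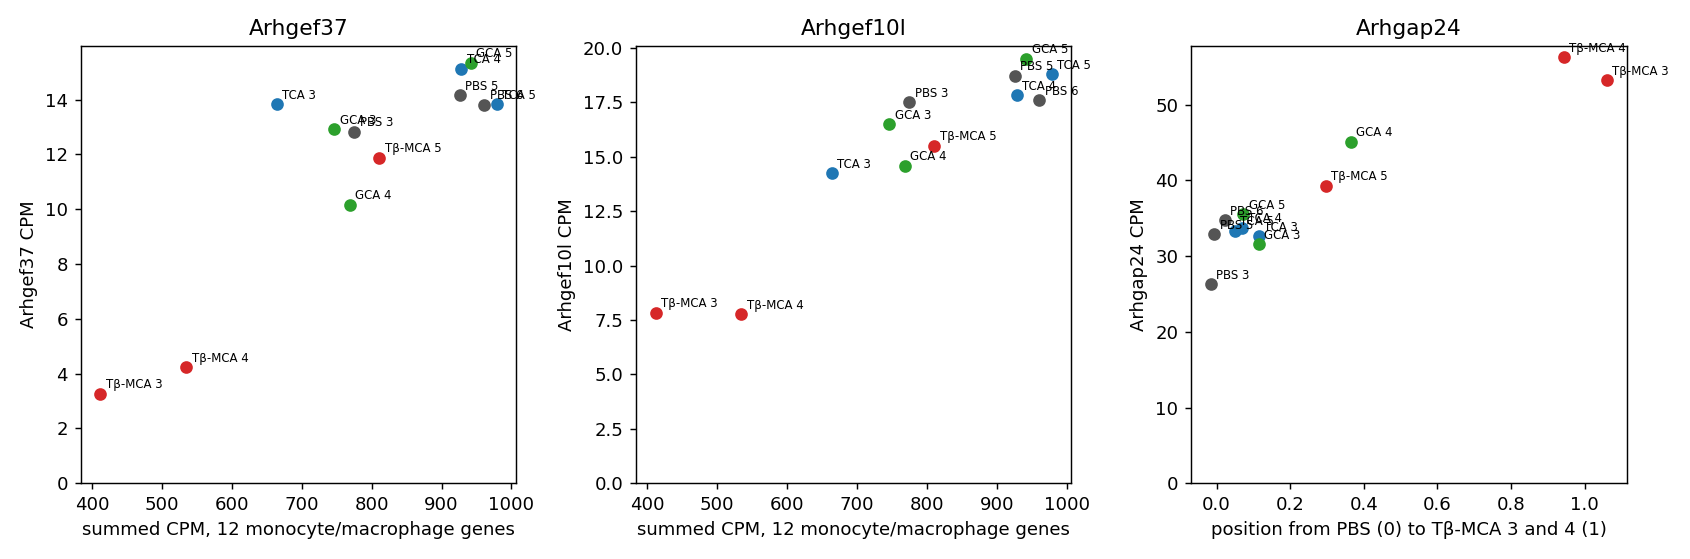
CPM of Arhgef37 and Arhgef10l against the summed CPM of 12 monocyte and macrophage markers, and CPM of Arhgap24 against the position of each library between PBS (0) and Tβ-MCA replicates 3 and 4 (1), 1 labelled point per sample. Tβ-MCA replicates 3 and 4 stand apart in the first panels, define the value 1 of the axis in the third, where Arhgap24 is itself among the genes used, and GCA replicate 4 and Tβ-MCA replicate 5 lie at 0.365 and 0.297 on that axis.

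Across all 55 genes, 21 log2 differences were above 0 and 34 below, with a median of -0.0578 against 0.00411 over all genes tested. At an unadjusted p under 0.05 there were 17 of 55 (30.9%, against 24.9% of all genes), 8 higher and 9 lower. All Tβ-MCA samples lay above all PBS samples for 8 genes (14.5%, against 14.1% of all genes) and below for 13 (23.6%, against 12.8%). This split depends on the scaling: with CPM by total library size 13 lay above (23.6%, against 18.8%) and 6 below (10.9%, against 9.30%). The adjusted calls over all genes moved with the scaling as well, from 745 higher and 533 lower to 1013 and 395, with a shift of the median of all genes from 0.00411 to 0.0521 on the log2 scale.

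More Dock genes lay below 0 than above it, and 0 of 11 passed the adjusted test (against 4.44% of all genes higher and 3.18% lower). Of 11, 9 had log2 differences below 0 under the main scaling and 8 with total library size, with medians of -0.121 and -0.0722. Dock5 stood at 351, 284 and 294 CPM with PBS and at 267, 226 and 271 CPM with Tβ-MCA, without overlap, and its log2 difference was -0.28 ± 0.10 (edgeR adjusted p = 0.101, and 0.00582 without a filter on low counts). Dock8 stood at 416, 342 and 343 CPM with PBS and at 320, 290 and 336 CPM with Tβ-MCA, also without overlap (log2 difference -0.22 ± 0.086, edgeR adjusted p = 0.129). In both, PBS replicate 3 was the highest sample of its group. Dock10, a Cdc42 and Rac activator of lymphoid cells, differed by -0.15 ± 0.065 (edgeR adjusted p = 0.159). Dock2 was at 522, 510 and 505 CPM with PBS and at 581, 542 and 520 CPM with Tβ-MCA, overlapping, with a log2 difference of 0.095 ± 0.057 (edgeR adjusted p = 0.327). Dock11, a Cdc42 activator, differed by 0.053 ± 0.074 (edgeR adjusted p = 0.717).

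With the opposite-strand transcripts and Arhgap22 left out, the 24 Arhgap genes were spread to both sides, with 12 above and 12 below 0. Their median was -0.00692 and their range -0.766 to 0.663. Of the 24, 3 were called higher (against 4.44% of all genes) and 0 lower (against 3.18%). With total library size 13 were above 0 and 11 below. Arhgap17, a Cdc42 and Rac GAP known as RICH1, stood at 88.6, 94.9 and 85.8 CPM with PBS and at 105, 101 and 106 CPM with Tβ-MCA, without overlap, but missed the threshold (log2 difference 0.21 ± 0.065, edgeR adjusted p = 0.0560, 0.0322 with total library size and 0.0291 with DESeq2). Arhgap4, a GAP of blood cells, stood at 370, 340 and 339 CPM with PBS and at 303, 278 and 313 CPM with Tβ-MCA, without overlap (log2 difference -0.23 ± 0.078, edgeR adjusted p = 0.0811). Its adjusted p was 0.0422 without Tβ-MCA replicate 5, 0.0457 with DESeq2 and 0.0388 without a filter. Of its exon bases, 36.1% are shared with L1cam and Naa10 on the same strand and Avpr2 on the other. Arhgap9, a Cdc42 and Rac GAP of hematopoietic cells, differed by -0.15 ± 0.062 (edgeR adjusted p = 0.140, and 0.0326 without Tβ-MCA replicate 5). Arhgap25 differed by 0.15 ± 0.069 (edgeR adjusted p = 0.192). Arhgap30, Arhgap11a, Arhgap1 and Arhgap15 had log2 differences of -0.070, -0.028, -0.050 and 0.015, and their adjusted p lay between 0.588 and 0.936. Of the 6 genes lower without Tβ-MCA replicate 5, the remaining member was Arhgap6, a RhoA GAP named here after its values were seen, with a log2 difference of -1.10 (adjusted p = 0.0424) from a level of 1.04 ± 0.291 CPM with PBS.

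Among the 16 Arhgef genes 1 was called higher (against 4.44% of all genes) and 0 lower (against 3.18%). Of their log2 differences, 5 lay above 0 and 11 below, and with total library size 8 lay on each side. Arhgef1 differed by -0.14 ± 0.079 (edgeR adjusted p = 0.305). Arhgef2 (GEF-H1), a microtubule-bound RhoA activator, stood at 190, 167 and 164 CPM with PBS and at 152, 161 and 162 CPM with Tβ-MCA, just without overlap (log2 difference -0.13 ± 0.064, edgeR adjusted p = 0.214). Arhgef11 (PDZ-RhoGEF) differed by 0.14 ± 0.063 (edgeR adjusted p = 0.178). Arhgef6 and Arhgef7, the PIX exchange factors for Rac and Cdc42, differed by -0.022 ± 0.075 and 0.097 ± 0.065 (edgeR adjusted p = 0.895 and 0.377). Arhgef12 (LARG) differed by -0.0035 ± 0.20 (edgeR adjusted p = 0.994).

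**Figure D4:**
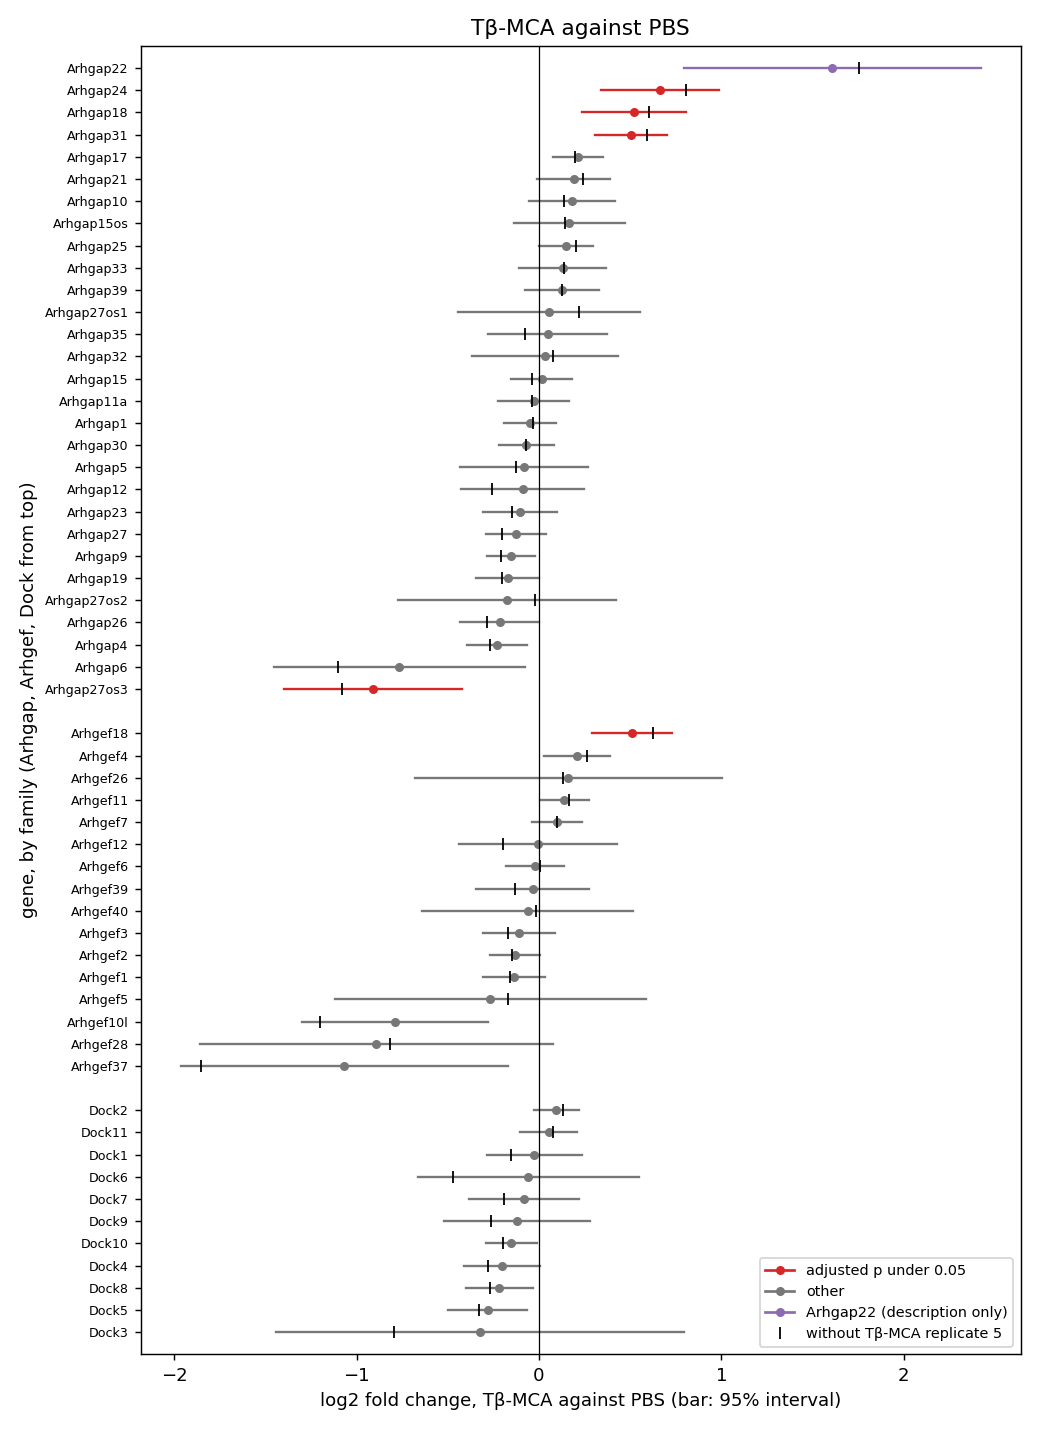
Log2 fold change of the 56 genes with Tβ-MCA against PBS, with the 95% interval as a bar and the value without Tβ-MCA replicate 5 as a black tick, by family. The 5 called genes are in red, Arhgap22 (1.61, description only) is in purple, and the Dock genes lie between -0.32 and 0.095.

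The comparisons of TCA, GCA and Tβ-MCA with PBS share the PBS samples, so each is given by its own values. TCA against PBS changed no gene of the 56 past the threshold, and none of the 16761 genes tested passed (0% of all genes). At an unadjusted p under 0.05 there were 0 of 56, against 546 of all genes (3.26%), and DESeq2 also called 0 of the 56. The log2 differences had a median of -0.00235, and 52 of 56 lay within 0.25 of 0. The 95% intervals of the abundant genes were narrow, from -0.17 to 0.13 for Arhgap30, from -0.14 to 0.11 for Dock2 and from -0.24 to 0.094 for Arhgef1. For Arhgap31 the interval was -0.13 to 0.26, and for Arhgap22 it was -1.19 to 0.61, which leaves a 2-fold fall within it.

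GCA against PBS also called 0 of 56 (0% of all genes by edgeR), and DESeq2 called 0 of the 56 as well. At an unadjusted p under 0.05 there were 2 of 56, against 591 of all genes (3.53%). Arhgap31 stood at 211, 232 and 207 CPM with GCA, above all PBS samples, with a log2 difference of 0.27 ± 0.092 (edgeR adjusted p = 0.999). Arhgap17 stood at 92.1, 104 and 102 CPM, overlapping PBS, with a log2 difference of 0.15 ± 0.065 (edgeR adjusted p = 0.999). Without GCA replicate 4 these differences were 0.22 and 0.11. Arhgap22 differed by 0.80 ± 0.39 (edgeR adjusted p = 0.999), and without GCA replicate 4 by 0.15. Arhgap24 stood at 31.6, 45.1 and 35.5 CPM and Arhgef18 at 419, 490 and 442 CPM in GCA replicates 3, 4 and 5. In both, replicate 4 was the highest of its group, and it lay within the range of Tβ-MCA.

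TCA and GCA were given at the same dose and time in both the labels and the study's methods, and are the 1 pair of compounds for which both sources give that. No gene of the 56 differed past the threshold between them, and 0% of all genes did (edgeR; DESeq2 called 0 of the 56). At an unadjusted p under 0.05 there were 2 of 56, against 412 of all genes (2.46%). Arhgap22 was higher with GCA by 1.09 on the log2 scale (95% interval 0.23 to 1.94, edgeR adjusted p = 0.9998). That difference rested on 1 library, and without GCA replicate 4 it was 0.44. Arhgap31 was higher with GCA in 3 of 3 samples by 0.21 (95% interval 0.013 to 0.40, edgeR adjusted p = 0.9998). The 95% intervals were -0.17 to 0.14 for Arhgap30, -0.078 to 0.17 for Dock2, -0.18 to 0.19 for Dock8, -0.093 to 0.24 for Arhgef1, -0.071 to 0.36 for Arhgef18 and -0.15 to 0.50 for Arhgap24. A change of 2-fold lies outside all 6 of these intervals.

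Tβ-MCA and TCA both carry taurine. Their doses are the same in the study's methods but differ in the labels, and a difference between these groups cannot be told apart from one of dose. Against TCA, Tβ-MCA was higher in 2 of 55 genes (3.64%, against 2.22% of all genes) and lower in 0 (against 1.29%) by edgeR. DESeq2 called 6 in all, and its share over all genes is not given. At an unadjusted p under 0.05 by edgeR there were 16 of 55 (29.1%, against 22.2% of all genes). Arhgap31 stood at 206, 184 and 173 CPM with TCA, below all Tβ-MCA samples, with a log2 difference of 0.44 ± 0.092 (edgeR adjusted p = 0.0346). Arhgef18 stood at 451, 395 and 376 CPM with TCA, also below all Tβ-MCA samples, with a log2 difference of 0.47 ± 0.10 (edgeR adjusted p = 0.0346). Leaving out any TCA sample or Tβ-MCA replicate 3 or 4 ended both calls (edgeR adjusted p of at most 0.164), and without Tβ-MCA replicate 5 there were 6 higher (10.9%, against 7.17% of all genes) and 6 lower (10.9%, against 8.12%). Arhgap24 and Arhgap18 differed by 0.58 ± 0.15 and 0.49 ± 0.13 (edgeR adjusted p = 0.0524 and 0.0539). Arhgef37 differed by -1.14 ± 0.40 (edgeR adjusted p = 0.132), and by -1.92 without Tβ-MCA replicate 5.

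**Figure D5:**
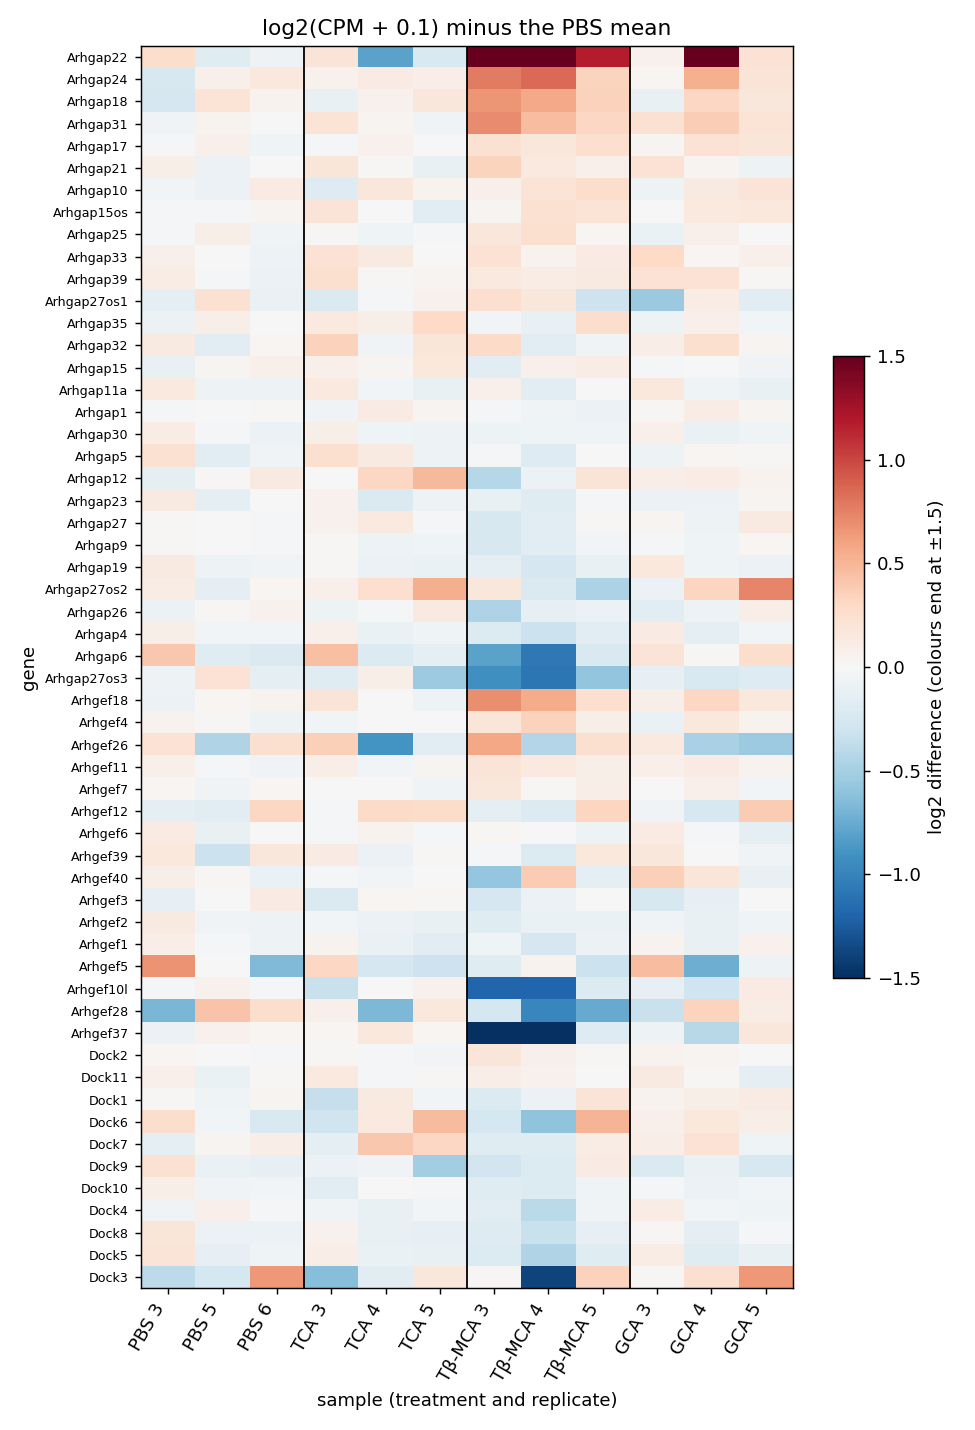
Difference of log2(CPM + 0.1) from the PBS mean for the 56 genes (rows) in the 12 samples (columns), with colours ending at ±1.5. The TCA columns are mostly pale outside low genes such as Arhgap22 and Arhgef26, Tβ-MCA replicates 3 and 4 carry the strongest colours, and Tβ-MCA replicate 5 and GCA replicate 4 show weaker forms of some of them.

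The wider pathway was described through 6 lists with 143 genes, of which 141 were in the table and 122 were tested. With Tβ-MCA against PBS 8 were higher (6.56%, against 4.44% of all genes) and 8 lower (6.56%, against 3.18%). Without Tβ-MCA replicate 5 there were 10 (8.06%, against 8.52% of all genes) and 26 (21.0%, against 9.44%) of 124 tested. These shares were read as a description, without a test of the lists. Of 18 tested small GTPases of this pathway, 1 rose (5.56%, against 4.44% of all genes) and 1 fell (5.56%, against 3.18%). Rhobtb2 rose (log2 difference 0.66, edgeR adjusted p = 0.0208) and Rnd1, which antagonises RhoA, fell (-0.84, adjusted p = 0.0331). Among pathway genes named after their values were seen, Rac2, the main Rac of neutrophils, differed by -0.016 (adjusted p = 0.911), Rhoa by -0.16 (adjusted p = 0.165) and Cdc42 by -0.17 (adjusted p = 0.266). The list of small GTPases had a median of -0.121 against 0.00411 over all genes. Without Tβ-MCA replicate 5, 1 of 18 was higher (5.56%, against 8.52% of all genes) and 4 were lower (22.2%, against 9.44%). Of the 2 tested RhoGDIs, which hold these GTPases in the cytosol, 0 passed with all samples. Arhgdib, which lies outside the naming rule given below, differed by -0.23 (edgeR adjusted p = 0.0583). Without Tβ-MCA replicate 5, 2 of 2 RhoGDIs were lower (100%, against 9.44% of all genes).

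Of 33 other exchange factors 5 rose (15.2%, against 4.44% of all genes) and 5 fell (15.2%, against 3.18%), with a median of -0.116. Without Tβ-MCA replicate 5, 5 of 34 were higher (14.7%, against 8.52% of all genes) and 11 were lower (32.4%, against 9.44%). Bcr, which has both an exchange and a GAP domain, rose by 0.63, Mcf2l (Dbs) by 0.86 and Itsn1 (intersectin) by 0.36 on the log2 scale (edgeR adjusted p = 0.0208, 0.0211 and 0.0225). Farp1, a Rac activator, fell by 1.67 on the log2 scale (edgeR adjusted p = 0.0269) from 2.73 ± 0.442 CPM. The leukocyte exchange factors Vav1 and Prex1, which lie outside the naming rule given below, differed by -0.13 and -0.19 (edgeR adjusted p = 0.158 and 0.130).

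Of 24 other RhoGAPs 2 rose (8.33%, against 4.44% of all genes) and 0 fell (against 3.18%), with a median of 0.0292. Tagap rose by 0.26 (edgeR adjusted p = 0.0269) and Pik3r2, a regulatory subunit of PI3-kinase with a GAP-like domain, by 0.55 (adjusted p = 0.0286). Without Tβ-MCA replicate 5, 2 of 25 were higher (8%, against 8.52% of all genes) and 2 were lower (8%, against 9.44%). The 3 ELMO partners of DOCK proteins gave 0 calls, also without Tβ-MCA replicate 5. Elmo1, which lies outside the naming rule given below, differed by 0.089 (edgeR adjusted p = 0.405). Of 42 effectors 0 rose (against 4.44% of all genes) and 2 fell (4.76%, against 3.18%), with a list median of -0.0662. Fmnl2, an actin-nucleating formin, and Cdc42se1 fell by 0.52 and 0.26 on the log2 scale (edgeR adjusted p = 0.0391 and 0.0430). Without Tβ-MCA replicate 5, 2 of 42 were higher (4.76%, against 8.52% of all genes) and 7 were lower (16.7%, against 9.44%). With TCA or GCA against PBS, and between GCA and TCA, 0 of the 122 passed by edgeR.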

How the data were processed

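Bulk mRNA of 12 samples in 4 groups was analysed. A stranded library kit was used per the labels, and the submitters' processing notes name Trimmomatic 0.36, STAR 2.5.3a, Subread 1.5.1 with featureCounts and the GRCm38 build. The authors deposited raw counts per gene and RPKM values made from them, which recalculated within a relative difference of 1.3e-06. The strand setting is not given in the sources used here.

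R 4.3.3 with edgeR 4.0.16 (TMM scaling, filterByExpr by group, robust quasi-likelihood test) was fitted to the counts of all 12 samples with group as the term, and p was adjusted by the Benjamini-Hochberg method over 16761 genes, or 17131 without Tβ-MCA replicate 5. CPM values use TMM library sizes. The method was tested on simulated data. A gene under 3 counts was taken as not detectable, which covers counting error only. Marker and pathway lists were written by hand, and the members and lists were chosen with earlier results of these data known. Genes named are those passing the adjusted test, those at p under 0.05 and 2-fold, a fixed list, and the 10 highest by RPKM with PBS, with up to 4 genes passing per pathway list, and the text says which genes fall outside this rule. Alternatives were DESeq2 1.42.0, limma 3.58.1 on log2(RPKM + 1) and log2(RPKM + 0.1), other scalings, filters, thresholds and samples, a replicate block, and each sample left out. Levels and plots were made in Python 3.11.15 (numpy 2.4.6, pandas 2.3.3, matplotlib 3.10.9). Exon overlaps were computed from the exon coordinates deposited with the counts, and promoters were taken from RefSeq. One value just under the count minimum is not reported here.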

Additional observations from a re-analysis of the deposited data

How the results depend on the processing

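Counts of called genes depended on the processing, and Arhgap31, Arhgef18, Arhgap24, Arhgap18 and Arhgap27os3 kept their direction with Tβ-MCA against PBS under each setting that gave a value. Directions of single pathway genes were not followed across settings. Higher with Tβ-MCA against PBS (4) became 0 with limma on log2(RPKM + 1) without a filter, with only the groups compared in the fit and at unadjusted p under 0.05 with 2-fold change, and 0 to 4 with a sample left out. Lower (1) became 3 with DESeq2, 5 without a filter, 0 with each of the 3 limma settings and with only the groups compared, and 0 to 6 with a sample left out. Tβ-MCA against TCA (2) became 6 with DESeq2, 7 without a filter, 0 with the 3 limma settings and only the groups compared, 1 at the unadjusted threshold, and 0 to 12 with a sample left out. GCA against TCA (0) became 1 at the unadjusted threshold, Arhgap22. Pathway calls (16) became 25 with DESeq2, 28 without a filter, 8, 6 and 0 with limma, 0 with only the groups compared, 2 at the unadjusted threshold, and 0 to 36 with a sample left out. TCA and GCA against PBS stayed at 0. Shares over all genes under DESeq2, limma, other filters, only the groups compared and most fits with a sample left out are not given. These counts therefore do not say whether the genes moved more than all genes did.

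With the replicate number as a replicate block, lower calls with Tβ-MCA against PBS came to 4 (Arhgap27os3, Arhgef10l, Arhgap4 and Dock5, with edgeR adjusted p of 0.0348, 0.0497, 0.0444 and 0.0324) and calls against TCA to 9. A replicate block without Tβ-MCA replicate 5, chosen after seeing the data, gave 11, 20 and, for the pathway lists, 46. Shares over all genes are not given for the block fits either. Correlations of deviations between samples of the same number lay between 0.0597 and 0.326, with 0.0668 and 0.0805 as the lowest in the comparisons where 3 numbers are shared, and the samples were not treated as paired there. Replicate 3 samples correlated with each other at 0.197 to 0.326 over all groups, and with other numbers at -0.268 to 0.0418. Among the other numbers, unequal pairs lay between -0.215 and 0.154. Between Tβ-MCA and GCA, which were not compared, the 3 same-number pairs lay between 0.197 and 0.239 and the 6 others between -0.268 and 0.0418, which is a hint from the data that numbers may be shared.

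Some uncalled genes changed sign around 0. Arhgap11a was 0.020 with total library size and 0.020, 0.021 and 0.020 with limma, and -0.079 to 0.052 with a sample left out. Arhgap15 was -0.040 to 0.097 with a sample left out. Arhgef12 was 0.042 with total library size, 0.22 with the replicate block, 0.0096 with limma without a filter, 0.11 with the block without Tβ-MCA replicate 5, and -0.20 to 0.18 with a sample left out. Arhgef6 was 0.027 with total library size, 0.027, 0.028 and 0.027 with limma, and -0.078 to 0.041 with a sample left out. The cause was not tested. Depth limits Arhgap22, with 16 to 93 counts per sample, and the opposite-strand transcripts. Per library, a count of 2 was 2.93 to 3.62 times as frequent as a count of 1. Of the counts above 0, 59.3% to 60.8% were even. Whether fragments were counted more than once was not tested, so counts may overstate the number of independent fragments.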

Other observations

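Samples with the number 3 shared some levels across treatments, a pattern noticed after the values were seen. Arhgap30 was at 2773, 2733 and 2704 CPM in replicate 3 of PBS, TCA and GCA, and each was the highest of its group, while Tβ-MCA replicate 3, at 2451 CPM, was the lowest of its group. Arhgap11a was at 357, 355, 338 and 360 CPM in replicate 3 of PBS, TCA, Tβ-MCA and GCA, the highest of each group. Dock5 was at 351, 331 and 334 CPM in replicate 3 of PBS, TCA and GCA, again the highest of each, and at 267 CPM in Tβ-MCA replicate 3, between the others of its group. The summed eosinophil markers stood highest of their groups in the same 3 libraries, at 289, 254 and 282 CPM. So did the sums of neutrophil, basophil and mast cell, and B cell markers. Monocyte and macrophage markers stood lowest of their groups there, at 775, 664 and 746 CPM. T and NK cell and erythroid markers were not highest there. Whether these samples share a mouse or a preparation was not tested.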
